A study of Mus musculus with 4 samples.

Results

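The genes described here are 10 that make or sense bile acids in the liver, listed by name for their known roles, by a rule that holds no measured value: the classic pathway hydroxylases Cyp7a1 and Cyp8b1, the alternative pathway hydroxylases Cyp27a1 and Cyp7b1, the ring enzymes Hsd3b7 and Akr1d1, the conjugation enzymes Slc27a5 and Baat, and the nuclear receptors Nr1h4 (FXR) and Nr0b2 (SHP). Earlier results of these data were known when they were chosen. All 10 were found among the 25239 genes counted, and all 10 passed the filter on low counts. Liver RNA was sequenced from C57BL/6 mice of 6 to 8 weeks. The extract group received Gynura segetum into the stomach at a daily 30 g/kg, from an extract concentrated to 2 g/mL, and the control group received saline, both for 3 weeks. Gynura segetum is a medicinal plant whose pyrrolizidine alkaloids injure the liver. Each group has 2 libraries, which the labels do not tie to different animals, so the p-values reflect variation between these libraries alone, and that variation may be technical.

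Bile acids are made from cholesterol in hepatocytes. In the classic pathway Cyp7a1 takes the first, rate-limiting step, and Cyp8b1 adds the 12-alpha hydroxyl group that steers the product to cholic acid. In the alternative pathway Cyp27a1 oxidises the side chain in mitochondria and Cyp7b1 hydroxylates the resulting oxysterol. Both branches then use Hsd3b7 and Akr1d1 to rebuild the sterol ring, Slc27a5 to activate the acid with coenzyme A and Baat to join it to taurine or glycine. FXR is the nuclear receptor for bile acids. It induces SHP, a receptor-like corepressor, and SHP together with the intestinal hormone Fgf15 lowers Cyp7a1 and Cyp8b1 in a feedback loop.

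The summed gene counts were 40013188 and 45754235 in the extract libraries and 49711750 and 32215268 in the control libraries. Levels are given as CPM, counts per 1000000 reads counted to genes, after TMM correction for library composition, and were compared with edgeR's quasi-likelihood test, adjusted after Benjamini and Hochberg over 13963 genes with a threshold of 0.05. In all 4 libraries Xist was counted, at 775 and 982 CPM in the extract libraries and 754 and 1073 CPM in the control libraries, and the Y-linked Ddx3y, Uty, Kdm5d and Eif2s3y had 0 counts. The 15 hepatocyte markers were all detected, and they summed to 127560 and 133598 CPM in the extract libraries and to 189112 and 191662 CPM in the control libraries. Alb alone made up 69267 and 74606 CPM of the extract sums and 105691 and 109141 CPM of the control sums. Of the 15 markers 3 passed the threshold, all lower, and 12 did not. In whole liver, fewer cells of a type and less RNA per cell cannot be told apart.

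Cyp8b1, Hsd3b7 and Nr0b2 fell after the extract, by about 19.4-fold, 2.58-fold and 1.95-fold. The other 7 genes did not pass the threshold. By edgeR 3 of 10 were lower, where 3.63% of all tested genes were, and 0 of 10 were higher, where 4.91% of all tested genes were. DESeq2 called 4 lower and 2 higher, where it called 921 lower and 1034 higher over all tested genes. At an unadjusted p under 0.05, 5 were lower and 2 higher. The share of all tested genes at that level is not given, here or for the lists below. Such counts therefore do not show that a list moved more than other genes. Leaving out any 1 library changed the number of calls, both among the 10 genes and over all tested genes. In those fits the group with 1 library took its spread from the other group. The median log2 fold change of the 10 genes was -0.44, beside -0.00473 for all tested genes and -0.40 for the hepatocyte markers. Extract and control libraries were fully apart for 9 of the 10 genes (6 lower and 3 higher), where this held for 54.4% of all tested genes. Over all tested genes 686 were higher and 507 lower, a split that total-count scaling moved to 940 and 338.

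**Figure D1:**
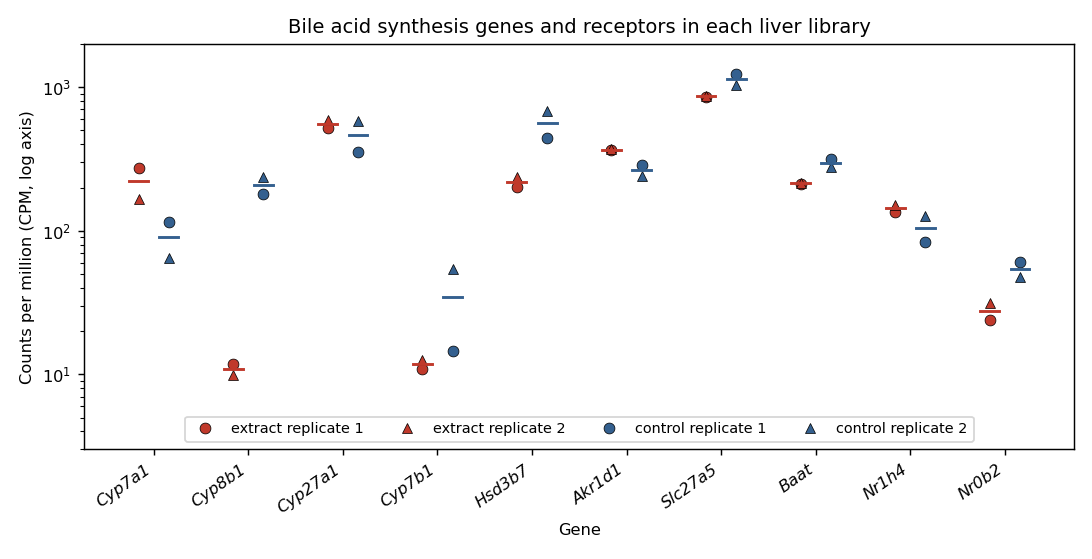
Level of each gene in each liver library, in CPM on a log axis, with circles for replicate 1, triangles for replicate 2 and a line at the group mean (n = 2 libraries each). Cyp8b1 lies at 11.7 and 9.91 CPM in the extract libraries against 182 and 238 CPM in the control libraries, and the groups overlap for Cyp27a1 alone.

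The 3 genes that fell all have an entry in the RefSeq promoter table on GRCm38.p6, as do 6 of the 10 genes in all. The 250 bases before the start of each are shown because these 3 genes fell together, in lower case with motif matches in capitals. They are chr9:121916306-121916555 on the minus strand for Cyp8b1, chr7:127800359-127800608 on the plus strand for Hsd3b7 and chr4:133553126-133553375 on the plus strand for Nr0b2.
Cyp8b1: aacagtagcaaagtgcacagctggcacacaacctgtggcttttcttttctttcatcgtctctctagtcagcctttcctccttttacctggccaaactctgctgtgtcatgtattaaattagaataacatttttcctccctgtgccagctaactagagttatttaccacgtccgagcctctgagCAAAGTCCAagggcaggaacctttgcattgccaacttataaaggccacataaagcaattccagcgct
Hsd3b7: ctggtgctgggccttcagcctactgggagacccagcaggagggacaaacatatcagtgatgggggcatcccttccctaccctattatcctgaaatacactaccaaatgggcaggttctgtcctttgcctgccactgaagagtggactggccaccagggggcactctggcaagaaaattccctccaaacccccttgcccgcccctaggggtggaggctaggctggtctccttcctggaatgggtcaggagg
Nr0b2: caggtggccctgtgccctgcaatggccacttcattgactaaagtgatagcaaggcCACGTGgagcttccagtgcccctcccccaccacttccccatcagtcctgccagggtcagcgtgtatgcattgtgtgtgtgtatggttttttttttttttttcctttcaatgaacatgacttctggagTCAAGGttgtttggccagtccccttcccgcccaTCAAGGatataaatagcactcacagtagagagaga

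Each window was searched on both strands for 5 motifs. These were TCAAGG (the core bound by LRH-1, the product of Nr5a2), CAAAGTCCA (a core bound by HNF4A), the E-box CACGTG of clock factors, the D-box TTANGTAA of Dbp, Tef and Hlf, and the FXR inverted repeat (IR-1). The Cyp8b1 window held CAAAGTCCA once, from 67 to 59 bases before the start, a run of letters that 0.384% of all 32851 such windows hold. The Nr0b2 window held TCAAGG at 2 places, from 68 to 63 and from 35 to 30 bases before the start, and CACGTG once, from 195 to 190 bases before it. TCAAGG occurs in 12.5% and CACGTG in 6.02% of all windows. The Hsd3b7 window held none of the 5. TTANGTAA (2.06% of all windows) and the FXR inverted repeat (0.00609%) matched in none of the 3. Among the windows not shown, that of Akr1d1, which did not pass the threshold, held TCAAGG on the opposite strand, from 213 to 208 bases before the start. The windows of Cyp27a1 and Nr1h4 held none of the 5 motifs. These matches describe letters only and do not show that a factor binds there. A window without a match can still hold a site, since only fixed letters within 250 bases were searched. For the FXR inverted repeat the search could hardly find a match, because only 2 of all 32851 windows hold its full, perfect form. Its absence therefore does not show that these genes lack an FXR site, and imperfect forms and bases further upstream were not tested.

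The hydroxylases of the classic pathway went apart. Cyp8b1, an intronless gene on chromosome 9 (121914356 to 121916305, GRCm38, minus strand), had 506 and 472 counts in the extract libraries and 8708 and 7071 counts in the control libraries. That is 11.7 and 9.91 CPM after the extract against 182 and 238 CPM in control. The lowest control library was 15.5-fold above the highest extract library, while the libraries within a group differed by at most 1.31-fold. The log2 fold change was -4.28 (SE 0.20, edgeR adjusted p = 0.000292), the 145th largest in size among the 13963 genes, and it ran from -4.46 to -4.07 over 11 other settings, past the threshold in each.

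Cyp7a1, on chromosome 4 (6265612 to 6275633, minus strand), was at 275 and 167 CPM in the extract libraries and at 115 and 64.7 CPM in the control libraries. Both extract libraries lay above both control libraries, but libraries of the same group also differed, by 1.65-fold after the extract and 1.78-fold in control. The mean was 221 ± 76.6 CPM after the extract and 89.9 ± 35.7 CPM in control (SD, n = 2 libraries each), a log2 fold change of 1.30 (SE 0.37, edgeR adjusted p = 0.113), which did not pass the threshold. By the DESeq2 Wald test the change was 1.29 (adjusted p = 0.000891). The edgeR adjusted p was 0.0249 without control replicate 1 (log2 fold change 1.77) and 0.332 without extract replicate 1 (0.88).

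Within each library, the ratio of Cyp8b1 to Cyp7a1 can be read without any scaling between libraries. On a scale of CPM per kilobase of exons, it was 0.0913 and 0.127 in the extract libraries and 3.37 and 7.88 in the control libraries. Cyp8b1 thus stood above Cyp7a1 in each control library and below it in each extract library. The groups did not overlap, and an exact 2-sided permutation test of 2 against 2 libraries cannot go below p = 0.333.

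**Figure D2:**
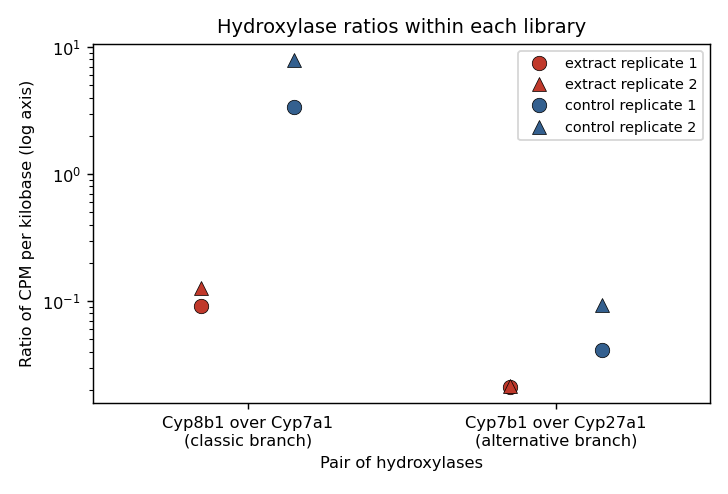
Ratio of 2 hydroxylases within each library, from CPM per kilobase of exons, on a log axis, with circles for replicate 1 and triangles for replicate 2. Cyp8b1 over Cyp7a1 is below 1 in both extract libraries (0.0913 and 0.127) and above 1 in both control libraries (3.37 and 7.88), and Cyp7b1 over Cyp27a1 is below 0.1 in all 4.

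In the alternative pathway neither hydroxylase passed the threshold, and both values moved with the control library left out. Cyp27a1, on chromosome 1 (74713574 to 74737892, plus strand), had 517 and 589 CPM in the extract libraries and 351 and 585 CPM in the control libraries, so the groups overlapped. Its log2 fold change was 0.24 (SE 0.25, edgeR adjusted p = 0.634). It turned to -0.08 without control replicate 1 and was 0.66 without control replicate 2.

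Cyp7b1, on chromosome 3 (18071950 to 18243338, minus strand), had 10.9 and 12.6 CPM in the extract libraries and 14.6 and 54.3 CPM in the control libraries. The control libraries differed 3.73-fold, more than for any other of the 10 genes, and the lower one was 1.16-fold above the higher extract library. The log2 fold change of -1.55 (SE 0.70, edgeR adjusted p = 0.31) was -0.31 without control replicate 2 and -2.21 without control replicate 1. The ratio of Cyp7b1 to Cyp27a1 per kilobase was 0.0211 and 0.0214 in the extract libraries and 0.0415 and 0.0932 in the control libraries.

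Cyp7b1 is expressed more in male than in female mouse liver, so genes of that kind were read beside it. Control replicate 2 was also the highest library for the male-biased steroid dehydrogenase Hsd3b5, at 0.533 and 0.462 CPM in the extract libraries and 0.646 and 56.9 CPM in the control libraries. The male-biased elongase Elovl3 had 0.325 and 0.441 CPM in the extract libraries and 0.0834 and 12.4 CPM in the control libraries. The transporter Slco1a1 had 131 and 120 CPM after the extract and 89.0 and 341 CPM in control. None of these 3, chosen after their values were seen, passed the threshold. Over the whole male-biased list control replicate 2 was above control replicate 1 for 9 of 14 genes, by more than 2-fold for 5, and control replicate 1 was more than 2-fold above for 1. The female-biased list gave the same counts but for 4 genes more than 2-fold above in control replicate 2. Among those 4, Cyp3a41a had 99.7 and 71.7 CPM in the extract libraries and 5.32 and 186 CPM in the control libraries, and Sult3a1 had 6.31 and 9.30 CPM after the extract and 25.2 and 272 CPM in control. Control replicate 2 thus stood high for some genes of both lists. The same count over all tested genes is not given, so this is not shown to be particular to these lists. Of 14 male-biased genes tested, 4 were higher after the extract and 3 lower, with a median log2 fold change of -0.76, and of 14 female-biased genes 1 was higher and 6 lower, with a median of -1.82. Without control replicate 1, 8 male-biased and 12 female-biased genes were lower, and without control replicate 2, 4 female-biased genes were higher. The major urinary protein Mup20 rose (log2 fold change 3.25), as did the glutathione transferase Gstp1 (2.23), while Serpina1e, an alpha-1-antitrypsin (-5.65), and the selenium-binding protein Selenbp2 (-1.27) fell, all from the male-biased list. From the female-biased list A1bg (-3.61), the sulfotransferase Sult2a1 (-6.16), Cyp2b13 (-3.36) and Cyp2b9 (-1.57) fell, and Cyp2a4 (1.30), chosen after its value was seen, rose. Close paralogs of several of these genes may take some of their reads. The part of sex-biased expression in the Cyp7b1 difference was not tested.

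Of the ring enzymes, Hsd3b7 fell and Akr1d1 did not pass. Hsd3b7, the sterol dehydrogenase that acts after 7-alpha hydroxylation in both branches, lies on chromosome 7 (127800604 to 127803802, plus strand). It had 200.2 and 236 CPM in the extract libraries and 440 and 686 CPM in the control libraries. The lowest control library was 1.86-fold above the highest extract library, and the control libraries differed 1.56-fold. The log2 fold change was -1.37 (SE 0.24, edgeR adjusted p = 0.0187). The edgeR adjusted p was 0.101 without extract replicate 1 (log2 fold change -1.27) and 0.0518 without extract replicate 2 (-1.52). In GENCODE vM21 62.4% of its exonic bases are shared with 9430064I24Rik on the opposite strand and 62% with Gm49388 on the same strand. Neither was found in the tables used here and the strand setting is not given in the sources used here, so reads of these genes cannot be told apart from those of Hsd3b7. The other 9 genes shared no exonic base and no stretch of 75 bases with another GENCODE gene.

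Akr1d1, the 5-beta reductase that bends the sterol ring (chromosome 6, 37530173 to 37568815, plus strand), had 364 and 371 CPM in the extract libraries and 287 and 240.5 CPM in the control libraries. The extract libraries were close together and both above control, with a log2 fold change of 0.48 (SE 0.15, edgeR adjusted p = 0.112). By the DESeq2 Wald test it was 0.47 (adjusted p = 0.0401), and by edgeR without control replicate 1 it was 0.61.

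The conjugation enzymes were both somewhat lower and neither passed. Slc27a5, the bile acid coenzyme A ligase (chromosome 7, 12988346 to 12998192, minus strand), had 857 and 869 CPM in the extract libraries and 1240 and 1032 CPM in the control libraries. Its log2 fold change was -0.40 (SE 0.16, edgeR adjusted p = 0.192). Baat, which joins bile acids to amino acids (chromosome 4, 49489422 to 49506557, minus strand), had 211 and 217 CPM in the extract libraries and 314 and 280 CPM in the control libraries, a log2 fold change of -0.48 (SE 0.14, edgeR adjusted p = 0.0941). For both genes every extract library was below every control library, and the extract libraries differed by 1.01-fold for Slc27a5 and 1.03-fold for Baat. Their log2 fold changes stood beside the hepatocyte marker median of -0.40. Without control replicate 2 the log2 fold change was -0.52 for Slc27a5 and -0.55 for Baat by edgeR. The DESeq2 Wald test called Baat with an adjusted p of 0.0214.

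The corepressor SHP fell while its inducer FXR did not pass. Nr0b2 (chromosome 4, 133553376 to 133556536, plus strand) had 23.9 and 31.5 CPM in the extract libraries and 60.6 and 47.6 CPM in the control libraries. Each extract library was below each control library, by at least 1.51-fold. The log2 fold change was -0.97 (SE 0.19, edgeR adjusted p = 0.0299). The adjusted p was 0.2 without extract replicate 1 (log2 fold change -0.79) and 0.0611 with total counts as the scaling (-0.81), a scaling that raises the median of all tested genes to 0.16.

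Nr1h4 (chromosome 10, 89454234 to 89533585, minus strand) had 135 and 152 CPM in the extract libraries and 83.0 and 126 CPM in the control libraries. The lower extract library was 1.07-fold above the higher control library. Its log2 fold change was 0.46 (SE 0.22, edgeR adjusted p = 0.266), or 0.79 without control replicate 2 and 0.18 without control replicate 1. The ratio of Cyp7a1 to Nr0b2 per kilobase was 3.12 and 1.43 in the extract libraries and 0.516 and 0.368 in the control libraries.

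**Figure D3:**
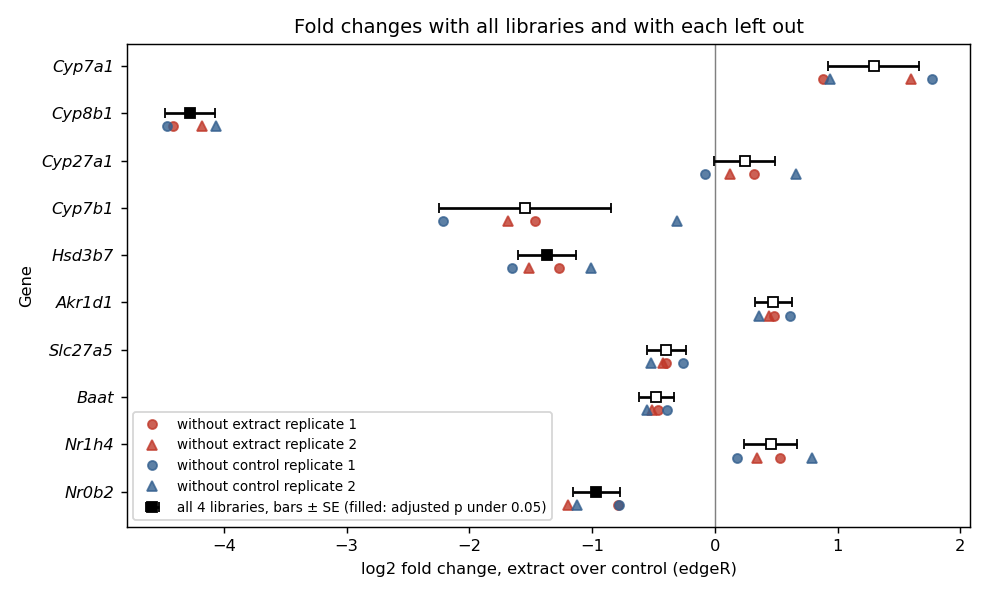
Log2 fold change of each gene, extract over control, from edgeR with all 4 libraries (squares with ± SE, filled where the adjusted p is under 0.05) and with 1 library left out (small symbols). Cyp8b1, Hsd3b7 and Nr0b2 are filled, and Cyp7b1 ranges from -2.21 to -0.31 with the control library that is left out.

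The control libraries differed by more than the extract libraries for 9 of the 10 genes, all but Nr0b2. The control libraries differed more than 1.5-fold for 5 of the 10 genes and the extract libraries for 1, Cyp7a1. Per kilobase of exons the order of levels in the extract group ran Slc27a5 (354 CPM per kilobase), Cyp27a1 (255), Akr1d1 (127), Baat (110.0), Hsd3b7 (78.8), Nr1h4 (62.3), Cyp7a1 (52.9), Nr0b2 (24.5), Cyp8b1 (5.55) and Cyp7b1 (5.41). Among neighbours in that order, the libraries of Nr1h4 and Cyp7a1 overlapped, as did those of Cyp8b1 and Cyp7b1. In the control group the order was Slc27a5 (466), Cyp27a1 (215), Hsd3b7 (203), Baat (153), Cyp8b1 (108), Akr1d1 (91.2), Nr0b2 (47.8), Nr1h4 (45.4), Cyp7a1 (21.5) and Cyp7b1 (15.9). There the neighbours Cyp27a1 and Hsd3b7, Hsd3b7 and Baat, Cyp8b1 and Akr1d1, Nr0b2 and Nr1h4, and Cyp7a1 and Cyp7b1 overlapped. Cyp8b1 held position 9 after the extract and position 5 in control, and Cyp7a1 held position 7 after the extract and position 9 in control.

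Most other enzymes of bile acid synthesis did not pass the threshold. Of 14 tested, 1 was higher by edgeR and 13 were not called, with log2 fold changes from -0.70 to 0.78 among the 13 and a median of -0.07 for all 14, and at an unadjusted p under 0.05 the counts were 2 higher and 1 lower, as they were by DESeq2. The call was Ch25h, which makes the oxysterol 25-hydroxycholesterol, with 173 and 187 counts in the extract libraries and 23 and 1 counts in the control libraries, a log2 fold change of 3.81 (SE 0.81, edgeR adjusted p = 0.0394). It did not pass with either extract library left out, and its log2 fold change was 6.75 without control replicate 1 and 3.04 without control replicate 2. Leaving out control replicate 1 gave 2 higher and 3 lower on this list, and control replicate 2 gave 3 and 1. Cyp2c70, which makes the muricholic acids of rodents, had 954 and 1049 CPM in the extract libraries and 787 and 1102 CPM in the control libraries. Slc27a2, which activates the side chain before it is shortened in peroxisomes, had 671 and 796 CPM after the extract and 1099 and 1283 CPM in control, with an edgeR adjusted p of 0.0516.

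Among the regulators of the pathway, 1 of 17 tested was higher and 1 lower, and both are also counted among the clock genes below. Leaving out control replicate 1 gave 5 higher and 4 lower, control replicate 2 gave 6 and 4, and either extract library gave 0 and 1. Nfil3, a repressor of D-box genes, fell to 14.7 and 16.9 CPM in the extract libraries, against 60.8 and 79.6 CPM in the control libraries (log2 fold change -2.15, edgeR adjusted p = 0.00151). Nr1d1, the clock repressor REV-ERB alpha, rose to 47.6 and 63.9 CPM, against 7.21 and 16.5 CPM in control (2.25, edgeR adjusted p = 0.0497), and it did not pass in 6 of 11 other settings, namely DESeq2's size factors, upper-quartile scaling, no filter on low counts, without the 20 most abundant genes and without either extract library. The log2 fold change of Nr1d1 ran from 1.76 to 2.95 over the 11. HNF4A and LRH-1, which activate Cyp7a1 and Cyp8b1, did not pass. Hnf4a had 602 and 653 CPM in the extract libraries and 865 and 791 CPM in the control libraries, and Nr5a2 had 53.3 and 47.1 CPM after the extract and 54.4 and 38.9 CPM in control. Fgf15 itself is made in the ileum and had 0 and 1 counts in the extract libraries and 0 and 0 counts in the control libraries. Its liver receptor Fgfr4 had 41.8 and 35.4 CPM after the extract and 58.8 and 55.2 CPM in control (log2 fold change -0.56, edgeR adjusted p = 0.0649), and the coreceptor Klb had 33.7 and 25.6 CPM after the extract and 29.0 and 29.7 CPM in control.

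Of 11 FXR target genes tested, 1 was higher and 10 did not pass, with a median log2 fold change of 0.08. Pltp, the phospholipid transfer protein of plasma, rose to 66.8 and 60.7 CPM in the extract libraries, against 26.6 and 34.5 CPM in the control libraries, a log2 fold change of 1.06 (SE 0.17, edgeR adjusted p = 0.0138), and did not pass without extract replicate 1. Without control replicate 1 the list had 3 higher and 2 lower. The bile salt export pump Abcb11 had 721 and 787 CPM after the extract and 912 and 897 CPM in control. Slc51b, a subunit of the basolateral bile acid exporter, had 1.28 and 1.39 CPM after the extract and 1.27 and 0.135 CPM in control.

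**Figure D4:**
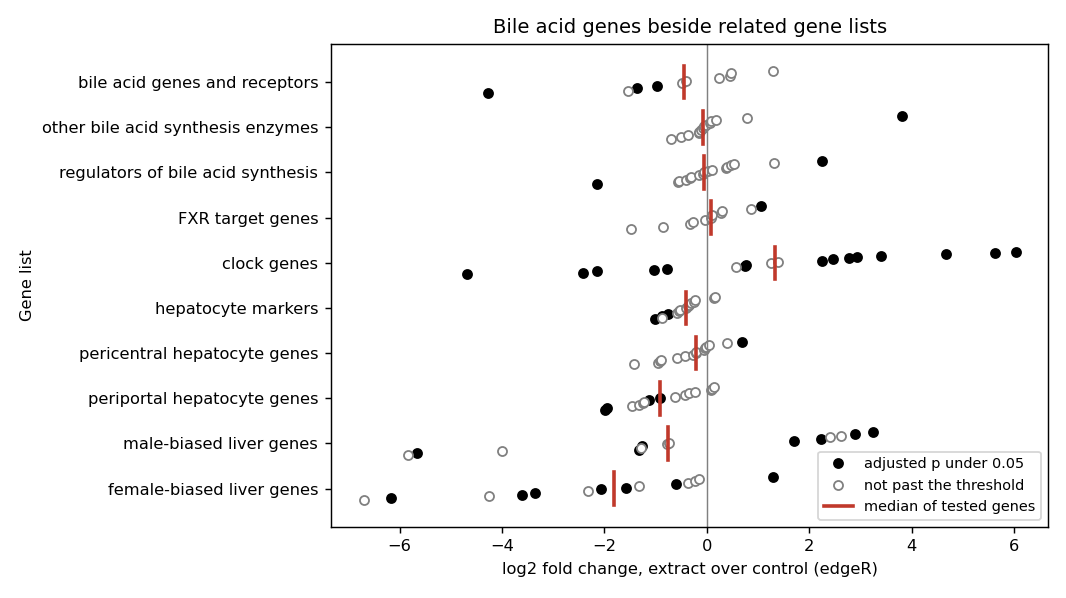
Log2 fold changes, extract over control, of the tested genes on each list (filled points at an edgeR adjusted p under 0.05, open points otherwise) with the list median as a red line. The bile acid genes have a median of -0.44 with 3 filled points, all lower. The filled points of the clock genes run from -4.68 (Npas2) to 6.04 (Dbp). Those of the male-biased list reach down to -5.65 (Serpina1e) and those of the female-biased list to -6.16 (Sult2a1).

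Clock genes differed between the groups, and Cyp7a1, Cyp8b1 and Nr0b2 are known to cycle over the day in mouse liver. Of 18 clock genes tested, 10 were higher and 5 lower after the extract. The activators Arntl and Npas2 fell (log2 fold changes -2.42 and -4.68), and Per2 (3.40), Per3 (4.68) and Dbp (6.04), an activator of D-box genes, rose. Dbp had 59.7 and 57.8 CPM in the extract libraries and 1.38 and 0.269 CPM in the control libraries, and it did not pass with either extract library left out or with no filter on low counts. With either extract library left out 5 clock genes were higher and 3 lower. The times of collection are not given, and the part of time of day in these differences was not tested.

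Hepatocytes near the central vein carry more of Cyp7a1 and Cyp27a1, so genes of both zones were read. Of 15 pericentral genes 1 was higher after the extract, the xenobiotic receptor Ahr (log2 fold change 0.69), and 14 did not pass, with a median of -0.21. Glul, the glutamine synthetase of the innermost pericentral layer, had 491 and 533 CPM in the extract libraries and 382 and 1529 CPM in the control libraries, so that control replicate 2 stood high for Glul as it did for Cyp7b1. Of 15 periportal genes 4 fell, namely Ctsc (-2.00), Hal (-1.95), Pigr (-0.91) and Sds (-1.12), and 11 did not pass, with a median of -0.91. Among the hepatocyte markers Fgb (-1.01), Apoa1 (-0.87) and Ahsg (-0.75) fell and 12 did not pass, and albumin (Alb) had 69267 and 74606 CPM after the extract and 105691 and 109141 CPM in control. The 3 calls on the hepatocyte list were lost with either extract library left out, as was Ahr. Leaving out control replicate 1 gave 5 hepatocyte, 8 periportal and 7 pericentral genes lower, control replicate 2 gave 6, 10 and 3, and extract replicate 2 gave 0, 2 and 0. The part of zonation and of hepatocyte content in the bile acid gene differences was not tested.

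Markers of other liver cells moved as well. Of 11 Kupffer cell markers 10 fell, among them Vsig4 (log2 fold change -4.55), Clec4f (-4.86), Cd5l (-3.67) and Folr2 (-3.77), and the list's sum was 71.5 and 71.4 CPM in the extract libraries and 766 and 597 CPM in the control libraries. Of 10 sinusoidal endothelial markers 6 fell, among them Stab2 (-2.01), Gpr182 (-1.87), Fcgr2b (-1.08) and Clec1b (-3.19). Stab1 (0.22) and Lyve1 (0.84) were higher in both extract libraries than in both control libraries, but did not pass. At an unadjusted p under 0.05, 7 of this list were lower and 1 higher. Of 10 stellate cell markers 2 fell, Ecm1 (-1.26) and Colec11 (-1.40). Among 10 cholangiocyte markers 1 fell, Sox9 (-1.60), while the list's median was 0.34. By DESeq2 2 cholangiocyte markers were higher and 1 lower, as at an unadjusted p under 0.05. Of 11 leukocyte markers edgeR called 0, with 5 lower at an unadjusted p under 0.05 and 4 lower by DESeq2. Among those with a mean of at least 1 CPM, Nkg7 had the smallest p (-3.39, edgeR adjusted p = 0.0896). It had 0.325 and 0.210 CPM in the extract libraries and 4.84 and 0.741 CPM in the control libraries. Sox9 and Colec11 did not pass with either extract library left out, nor Ecm1 and Fcgr2b without extract replicate 1. With each library left out in turn, the counts lower ran from 9 to 11 for Kupffer cell markers, from 3 (without extract replicate 1) to 7 for sinusoidal, from 0 to 7 for stellate cell (the same extract library and control replicate 2), from 0 to 2 for cholangiocyte and from 0 to 8 (without control replicate 2) for leukocyte markers, and up to 3 cholangiocyte markers were higher (without control replicate 2). The part of these cells in the bile acid gene differences was not tested. Over the 4 libraries and 7972 other genes of at least 10 CPM, the profiles nearest to Cyp8b1 were those of Vsig4, Cd163 and A1bg, at Euclidean distances of 0.54, 0.59 and 0.78 between centred log2 CPM values. For Cyp7a1 they were Fat1, Itga6 and Tmprss2 (0.16, 0.20 and 0.28), and for Nr0b2 Slc40a1, Tnfrsf21 and Pdcd4 (each 0.11 to 0.12). These distances rest on 4 libraries.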

How the data were processed

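The authors deposited 1 table per library with raw counts per gene symbol, whole numbers with no normalization. Per the submitters' processing notes, CASAVA 1.8, HISAT2 2.1.0, HTSeq and the mm10 build were involved, in roles that are not stated. The annotation and strand setting were not given in the sources used here. Closing rows that name no gene (5 per table) held 16.5% and 17.4% of records in the extract libraries and 17.2% and 22.0% in the control libraries and stayed out of library sizes and tests. Groups follow the sample titles. The test was edgeR 4.0.16 under R 4.3.3 (filterByExpr, TMM, robust dispersion and quasi-likelihood fit, 2-sided F test), and p-values were adjusted over the 13963 genes kept. The standard error is the size of the log2 fold change over the square root of F. 1 read is worth 0.0232 and 0.0210 CPM in the extract libraries and 0.0208 and 0.0337 CPM in the control libraries. The libraries of a group differed by more than sampling noise (chi-square per degree of freedom 29.1 in extract and 118 in control). Exon lengths and positions come from GENCODE vM21 on GRCm38, the assembly of mm10, and promoters from RefSeq on GRCm38.p6. The fit was tested on simulated data.

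The 10 genes, the lists and the tests were chosen with earlier results of these data known. From each other list the text names the called genes of smallest p with a mean of at least 1 CPM (up to 6 for the 3 pathway lists and 4 otherwise), plus regulators and markers fixed by name. Hsd3b5, Elovl3, Slco1a1, Cyp3a41a, Sult3a1, Cyp2a4, Cyp2c70 and Slc27a2 were added after their values were seen. Alternatives were DESeq2 1.42.0, DESeq2's size factors, upper-quartile and total-count scaling, no filter on low counts, leaving out the 20 most abundant genes or each library, and a replicate block.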

Additional observations from a re-analysis of the deposited data

How the results depend on the processing

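Cyp8b1 kept its call under all 11 alternatives. Over the 10 genes and 11 alternatives, 94 of 110 values kept both their direction and their side of the threshold, 11 gained a call, 4 lost one and 1, Cyp27a1 without control replicate 1, changed sign with no call. The lost calls were those of Hsd3b7 without either extract library and of Nr0b2 without extract replicate 1 or with total-count scaling. With each library left out in turn, the genes called higher ranged from 0 to 2 and those called lower from 1 to 5, against 0 and 3, and all genes called higher ranged from 233 to 1826 and lower from 134 to 1782, against 686 and 507. Where 1 library of a group was left, its spread was taken from the other group. The DESeq2 Wald test called 2 of the 10 genes higher, and 1034 higher and 921 lower over all genes. Total-count scaling gave 940 higher and 338 lower. The replicate block called 1 of the 10 genes higher, Cyp7a1 (edgeR adjusted p = 0.00217), and lost no call among them. Libraries of the same number deviated together at r = 0.157 across genes, which with 2 pairs does not show pairing. The cause of these shifts was not tested.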
